A study of Mus musculus with 10 samples.

Results

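The genes described here encode 4 families of oxidising and reducing enzymes: cytochromes P450 (Cyp), aldehyde dehydrogenases (Aldh), aldo-keto reductases (Akr) and flavin-containing monooxygenases (Fmo). They were taken by symbol, as every measured gene named Cyp, Aldh, Akr or Fmo followed by a digit, with Cyp51, Cyp2f2 and Aldh1a7 left out. This gave 87 of the 17919 genes measured, namely 53 Cyp, 19 Aldh, 9 Akr and 6 Fmo genes. Whole lungs of 10 mouse embryos were profiled at E18.5, late in gestation, on 1 array each. Of these, 5 were controls with Shh-Cre, and 5 were knockouts whose floxed Hdac3 was deleted by Shh-Cre. All were on a mixed C57BL/6, 129X1 and 129S6 background, and came from Hdac3 fl/fl mothers and Hdac3 fl/+ fathers that carried Shh-Cre. The knockout is labelled as homozygous for the floxed allele, while the Hdac3 alleles of the controls are not given. Any embryo of this cross has 1 floxed allele from its mother. A control that carries Shh-Cre and is not homozygous for the floxed allele is therefore heterozygous for the deletion. By this cross, the changes compare knockouts with heterozygous controls and not with wild type. Shh-Cre acts in the lung epithelium, and the other cells of the lung keep Hdac3. In whole lung, fewer cells of a type and less RNA per cell cannot be told apart.

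Cytochromes P450 are haem enzymes that insert oxygen into lipids, steroids, vitamins and foreign compounds. They take electrons from P450 reductase in the endoplasmic reticulum or from ferredoxin in mitochondria. Flavin-containing monooxygenases oxidise nitrogen and sulphur atoms of amines and thiols. Aldehyde dehydrogenases turn aldehydes into acids, among them retinaldehyde into retinoic acid, and aldo-keto reductases turn aldehydes and ketones into alcohols, steroids included. In the adult lung the club cells of the airway are rich in P450s. Hdac3 works with the NCoR and SMRT corepressors, which nuclear receptors recruit to repress their targets.

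The levels are log2 probe set values, so a difference of 1 is a factor of 2, and levels of different genes are not compared because each has its own probes. A gene was called where limma's adjusted p (Benjamini-Hochberg over all 17919 genes, two-sided) was under 0.05. The mean over all lungs was at least 6.3, near the 20th percentile of gene means, for 55 of the 87 genes and under it for 32. The genes nearest the mark were Cyp2c23, which lay level with it, and Aldh1a3 (6.32) above it, and Cyp4f37 (6.23) and Fmo6 (6.21) below it. Hdac3 itself had a mean of 10.81 ± 0.10 in controls and 10.50 ± 0.11 in knockouts (SD, n = 5 each), with all knockout lungs below all controls (adjusted p = 0.0203). Leaving out control 2 or control 5 ended this call (adjusted p = 0.0526 and 0.0545). Lung epithelial genes such as Sftpc (13.46 and 13.44 in controls and knockouts) and Nkx2-1 (11.01 and 10.97) were present in both groups. Of 8 lung epithelial markers limma called 0, and 2 had an unadjusted p under 0.05. Sftpa1 was lower (change -0.48, adjusted p = 0.0899) and Cdh1 was higher (change 0.18, adjusted p = 0.0517). Of 9 measured hepatocyte genes, the cells richest in these enzymes, limma called 0 (1 at an unadjusted p under 0.05). Their mean level per lung was 6.38 to 6.51 in controls and 6.25 to 6.46 in knockouts, and Alb read 6.74 and 6.36.

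In the knockout, 3 of the 87 enzymes fell and limma called 0 higher. At an unadjusted p under 0.05, 10 were lower (11.5%, beside 6.71% of all genes) and 1 was higher (1.15%, beside 6.84%). Together these 11 made up 12.6% of the 87, beside 13.5% of all genes. Each later count at an unadjusted p stands beside that 13.5%. The 3 were Akr1c14, a steroid-reducing aldo-keto reductase, Aldh1l1, a folate enzyme, and Cyp1b1, a P450 of steroids, retinoids and polycyclic hydrocarbons. That is 3.45% of the 87, beside 3.12% of all genes called in either direction, 1.58% called lower and 1.54% called higher, so the share called in all is near the background. With the replicate number as a block, Cyp39a1 also fell and the count was 4 (4.6%), all lower, beside 4.72% of all genes in either direction and 2.44% lower. In a fit of the genes with a mean of at least 6.3, the same 4 of 55 enzymes were called, beside 4.07% of those genes. With values under 6.3 raised to 6.3, Akr1c14 alone was called. Of the other 84 enzymes, 83 had a 95% interval of the change that lay within a factor of 1.5 either way (0.58 on the log2 scale), and the exception was Cyp2b10. Over all genes 96.6% had such an interval. Of the 83 enzymes, 52 had a mean of at least 6.3, and the rest lay under it, where changes can be understated. The change was below 0 for 53 enzymes (60.9%, beside 48% of all genes) and above 0 for 34, with a median of -0.02, beside a median of 0.00 over all genes.

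**Figure D1:**
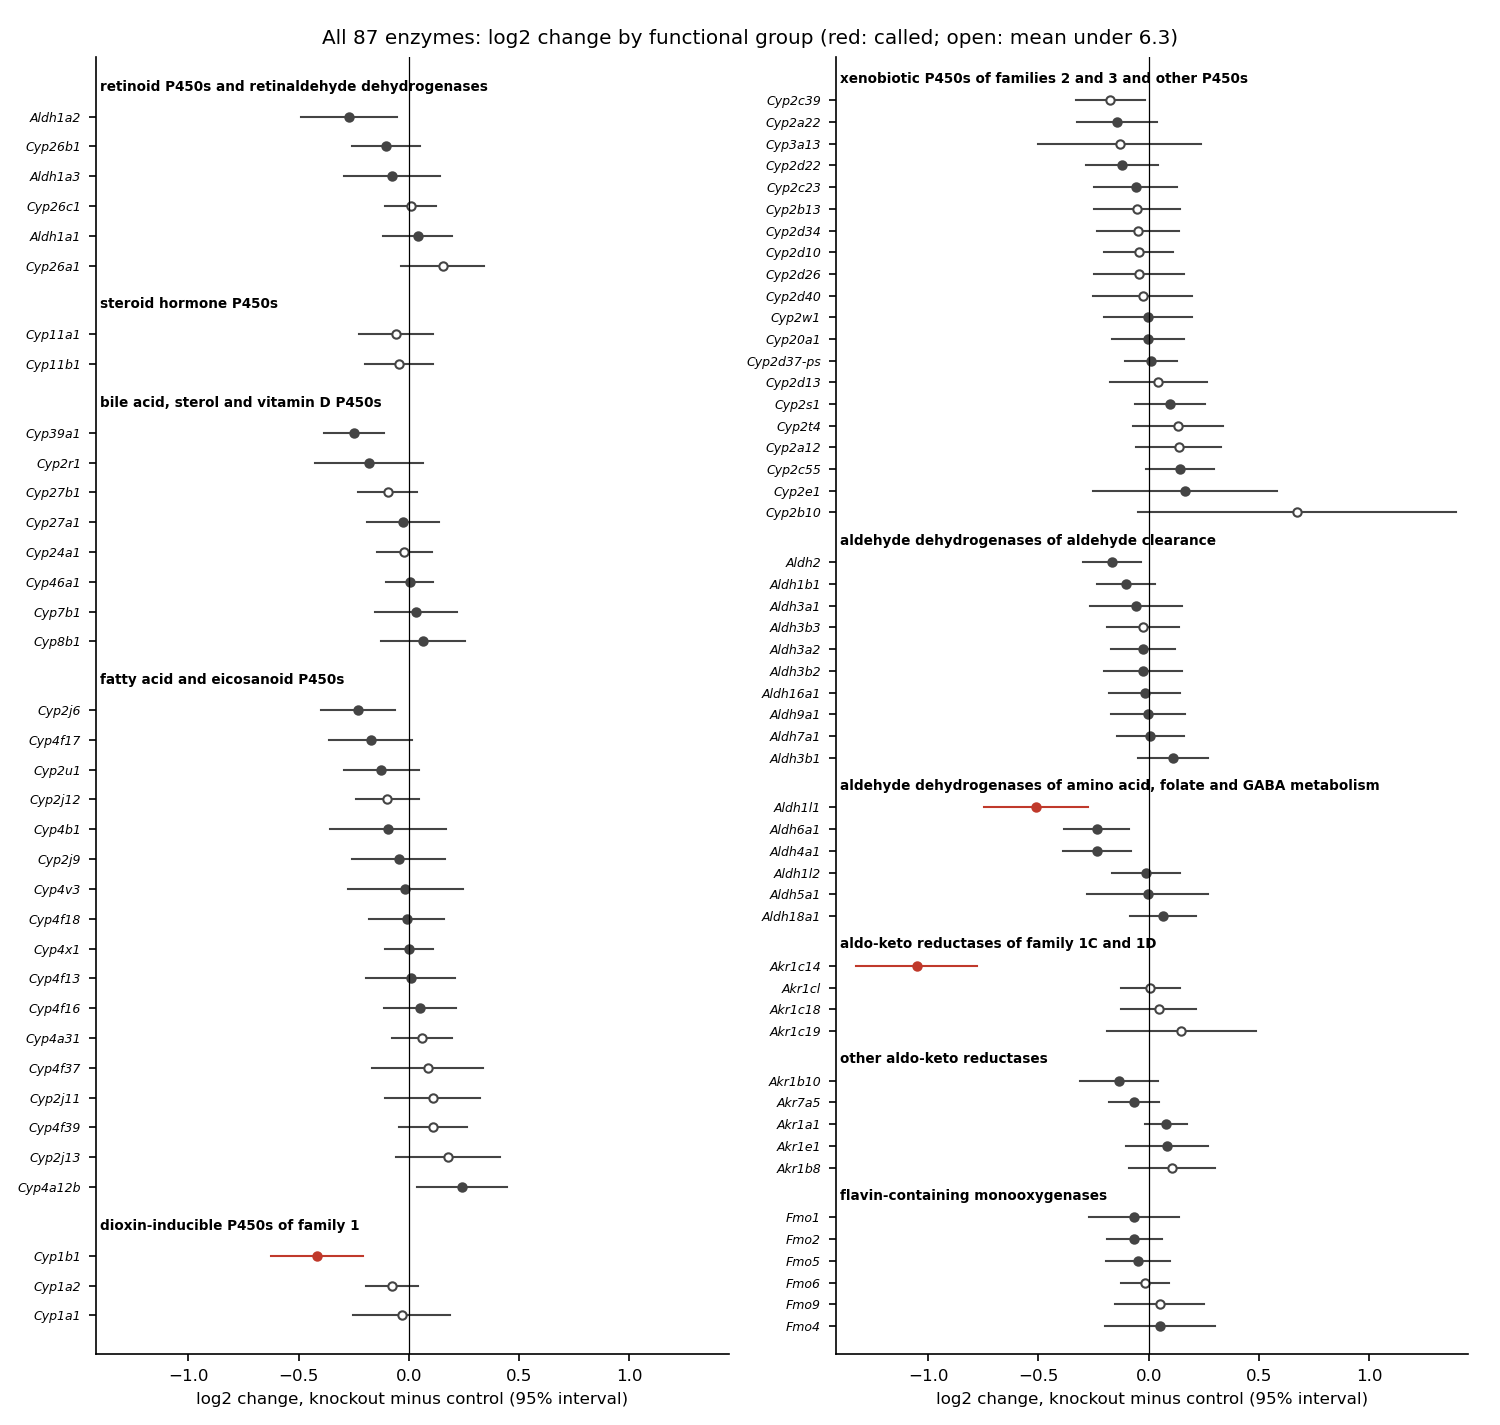
Log2 change, knockout minus control, of each of the 87 enzymes with its 95% interval, in functional groups. Red marks the 3 called genes, which all lie below 0, and open circles mark genes with a mean under 6.3; Cyp2b10 has the widest interval, from -0.05 to 1.40.

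Akr1c14 encodes a 3-alpha-hydroxysteroid dehydrogenase, which reduces dihydro forms of androgens and progesterone. Controls 1 to 5 read 9.44, 9.06, 9.39, 9.56 and 9.62, and knockouts 1 to 5 read 8.22, 8.04, 8.42, 8.47 and 8.68. The groups did not overlap, and the lowest control still lay above the highest knockout. The mean went from 9.42 ± 0.22 to 8.36 ± 0.25 (SD, n = 5 each), a log2 change of -1.05 ± 0.13 (SE), or 48.2% of the control level (limma adjusted p = 0.000487). Among same-numbered lungs the knockout was lower in 5 of 5, by -1.23 to -0.94. The call was kept when any 1 lung was left out. It was lost only with numbers 4 and 5 alone, at an adjusted p of 0.064 and a log2 change of -1.02.

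The Akr1c genes lie side by side in the genome. Akr1c18, which encodes a 20-alpha-hydroxysteroid dehydrogenase, and Akr1c19 follow Akr1c14 in that cluster. Akr1c18 had means of 5.37 and 5.41 in controls and knockouts, and Akr1c19 had means of 5.80 and 5.95, all under 6.3. Their changes were 0.04 and 0.15 (limma adjusted p = 0.889 and 0.769). Akr1e1, at the end of the same cluster, changed by 0.08 (adjusted p = 0.766). On the other side of Akr1c14, Ucn3 had a difference of 0.04 (adjusted p = 0.897). Of the genes measured within 5 places of Akr1c14, none of its neighbours was called. Akr1c6, Akr1c12 and Akr1c13 were not analysed here.

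Aldh1l1 encodes cytosolic formyltetrahydrofolate dehydrogenase, which removes one-carbon units from the folate pool. Controls read 8.71, 8.79, 8.63, 8.33 and 8.62, and knockouts 8.14, 8.35, 8.26, 7.97 and 7.81. Knockout 2 lay just above control 4, and the other lungs did not overlap. The mean went from 8.62 ± 0.17 to 8.11 ± 0.22 (SD, n = 5 each), a change of -0.51 ± 0.11 (SE), or 70.1% of the control level (adjusted p = 0.0227). The knockout was lower in 5 of 5 same-numbered pairs. It was not called without control 1 (adjusted p = 0.0643), control 2 (0.0578), control 3 (0.0564), control 5 (0.0528) or knockout 4 (0.0571), and with values raised to 6.3 (0.0745). Nor was it called with numbers 4 and 5 alone (limma adjusted p = 0.296). Its mitochondrial counterpart Aldh1l2 had means of 6.38 and 6.36, with an interval of the change from -0.17 to 0.14.

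Cyp1b1 is a P450 of family 1, whose genes are classic targets of the aryl hydrocarbon receptor. Controls read 6.77, 6.78, 6.81, 6.49 and 6.39, and knockouts 6.22, 6.28, 6.24, 6.00 and 6.41. Controls 1 to 4 stood above all knockouts, while control 5 lay just below knockout 5. The mean went from 6.65 ± 0.19 to 6.23 ± 0.15 (SD, n = 5 each), a change of -0.42 ± 0.10 (SE, adjusted p = 0.0354). The knockout mean lay under 6.3, and with values raised to 6.3 the gene was not called (change -0.33, adjusted p = 0.115). Among lungs 1 to 3 the change was -0.54, and among lungs 4 and 5 it was -0.23 and not called (limma adjusted p = 0.73). It was not called without control 1 (adjusted p = 0.0956), control 2 (0.0872) or control 3 (0.0945), nor without knockout 1 (0.0789), knockout 2 (0.0698), knockout 3 (0.0773) or knockout 4 (0.0783). The other members of the family, Cyp1a1 and Cyp1a2, had means from 5.73 to 6.09, all under 6.3, and changes of -0.03 and -0.08.

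Cyp39a1, which hydroxylates 24-hydroxycholesterol on the way to bile acids, lay at the threshold. Controls read 9.53, 9.56, 9.62, 9.55 and 9.39, and knockouts 9.34, 9.42, 9.28, 9.12 and 9.26. Control 5 lay below knockout 2, and the other lungs did not overlap. The mean went from 9.53 ± 0.08 to 9.28 ± 0.11 (SD, n = 5 each), a change of -0.25 ± 0.06 (SE, adjusted p = 0.0545). It was called in 8 of 21 alternative fits and not in 13. Among the 8 were those with the replicate block (adjusted p = 0.0475), without control 5 (0.0376) and without knockout 2 (0.0408). All 5 same-numbered pairs were lower in the knockout, by -0.43 to -0.14.

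**Figure D2:**
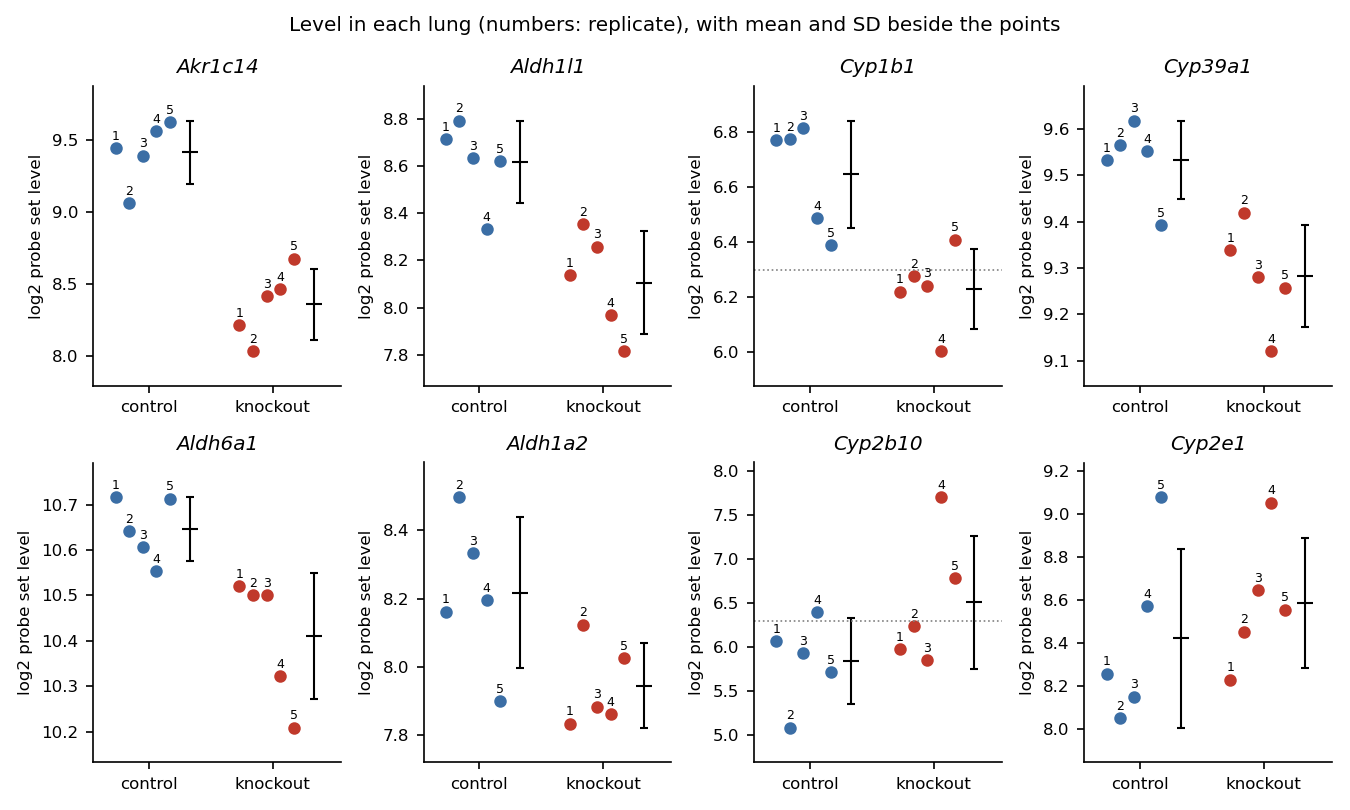
Log2 probe set level of 8 enzymes in each lung, with the replicate number above each point, the mean and SD (n = 5) beside it, and a dotted line at 6.3 where it falls in the panel. Akr1c14 and Aldh6a1 have groups that do not overlap, and the highest Cyp2b10 value is knockout 4 at 7.71.

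The promoters of the called genes are shown because these are the enzymes that passed the test. Of the 87 enzymes, 66 had an entry in the RefSeq table of promoters (GRCm38.p6). The 250 bases before the start were searched on both strands for 5 motifs: GCGTG, the core of the aryl hydrocarbon receptor site, TGACNNNGC, the core of the antioxidant element bound by NRF2, AGGTCA, the hexamer that nuclear receptors read, TATAAA, the TATA box, and CACGTG, the E-box. Capitals mark each match.
Akr1c14, chr13:4059341-4059590, plus strand: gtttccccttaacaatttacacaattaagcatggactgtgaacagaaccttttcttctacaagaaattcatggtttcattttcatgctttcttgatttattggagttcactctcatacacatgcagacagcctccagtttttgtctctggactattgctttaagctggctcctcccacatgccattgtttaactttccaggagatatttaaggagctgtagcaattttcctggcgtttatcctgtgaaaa
Aldh1l1, chr6:90550543-90550792, plus strand: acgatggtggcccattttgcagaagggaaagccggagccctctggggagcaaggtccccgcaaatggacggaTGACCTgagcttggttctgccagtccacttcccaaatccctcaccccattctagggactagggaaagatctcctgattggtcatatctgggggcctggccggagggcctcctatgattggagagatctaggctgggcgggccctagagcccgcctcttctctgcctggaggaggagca
Cyp1b1, chr17:79715062-79715311, minus strand: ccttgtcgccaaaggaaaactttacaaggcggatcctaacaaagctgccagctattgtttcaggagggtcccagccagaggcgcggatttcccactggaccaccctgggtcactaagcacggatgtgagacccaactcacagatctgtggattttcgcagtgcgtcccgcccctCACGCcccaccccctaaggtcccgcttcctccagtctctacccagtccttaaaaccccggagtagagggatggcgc

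The Akr1c14 window held none of the 5 motifs. Aldh1l1 held 1 AGGTCA, from -178 to -173 on the reverse strand, and Cyp1b1 held 1 GCGTG core, from -76 to -72 on the reverse strand, with -1 as the base before the start. GCGTG occurred in 28.3% of all 27025 promoters of this length and in 28.8% of the 66, and AGGTCA in 13.8% and 13.6%. TGACNNNGC occurred in 10.1% and 7.58%, CACGTG in 6.04% and 6.06%, and TATAAA in 13% and 21.2%. These matches are letters in a window and were not tested as sites.

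Of the 6 aldehyde dehydrogenases of amino acid, folate and GABA metabolism, Aldh1l1 alone was called, and 2 others had an unadjusted p under 0.05. Aldh6a1, of valine and thymine breakdown in mitochondria, read 10.72, 10.64, 10.61, 10.55 and 10.71 in controls and 10.52, 10.50, 10.50, 10.32 and 10.21 in knockouts. The groups did not overlap, with a change of -0.24 ± 0.07 (SE, adjusted p = 0.0951). Only 2 of the 87 enzymes (2.3%), Akr1c14 and Aldh6a1, had all knockouts below all controls, beside 2.66% of all genes. None had all knockouts above all controls, beside 2.44%, and groups that did not overlap in either direction made up 5.11% of all genes. The second Aldh6a1 probe set, at 6.06 and 6.32, differed the other way, by 0.26. Aldh4a1, of proline breakdown, had means of 8.01 ± 0.16 and 7.77 ± 0.05 (SD, n = 5 each) and a change of -0.23 (adjusted p = 0.118). Aldh18a1, of proline synthesis, had a difference of 0.06, and Aldh5a1, of GABA breakdown, had an interval from -0.28 to 0.27.

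Of the 10 enzymes of general aldehyde clearance, limma called 0, and 1 had an unadjusted p under 0.05. This was Aldh2, the mitochondrial enzyme that oxidises acetaldehyde. Controls read 11.20, 11.31, 11.22, 11.10 and 11.18, and knockouts 11.11, 11.07, 11.16, 10.94 and 10.91. The change was -0.17 ± 0.06 (SE, adjusted p = 0.216), and 5 of 5 pairs were lower. Aldh7a1, known for its step in lysine breakdown, had means of 10.37 and 10.38, with an interval from -0.14 to 0.16. The changes of the group ran from -0.17 to 0.11.

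Of the 6 enzymes that make or break down retinoic acid, limma called 0, and 1 had an unadjusted p under 0.05. Aldh1a2, the retinaldehyde dehydrogenase of lung mesenchyme, read 8.16, 8.50, 8.33, 8.20 and 7.90 in controls and 7.83, 8.12, 7.88, 7.86 and 8.02 in knockouts. Control 5 lay among the knockouts, and the change was -0.27 ± 0.10 (SE, adjusted p = 0.218). Aldh1a1 had means of 10.36 and 10.40, with an interval from -0.12 to 0.20. Aldh1a7, a close relative left out of the 87, had means of 9.44 and 8.87 and a change of -0.58 (adjusted p = 0.000151). On the breakdown side Cyp26b1 had a difference of -0.10 (adjusted p = 0.608), while Cyp26a1 and Cyp26c1 were under 6.3. Of 24 measured retinoid partners (binding proteins, retinol dehydrogenases, receptors), limma called 0 (4 at an unadjusted p under 0.05), and Dhrs9 was called with the replicate block at means of 5.75 and 6.07, both under 6.3.

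Among 8 P450s of bile acids, sterols and vitamin D, limma called 0, Cyp39a1 being the 1 at an unadjusted p under 0.05. Cyp7b1, which hydroxylates oxysterols, had means of 7.65 ± 0.19 and 7.68 ± 0.09 (SD, n = 5 each), with an interval from -0.16 to 0.22. Cyp2r1, the vitamin D 25-hydroxylase, changed by -0.18 (adjusted p = 0.563) with 5 of 5 pairs lower. Cyp27b1 and Cyp24a1, which activate and inactivate vitamin D, were under 6.3 and changed by -0.10 and -0.02. The 2 steroidogenic P450s measured, Cyp11a1 and Cyp11b1, were also under 6.3, with group means from 5.36 to 5.98.

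Of 17 fatty acid and eicosanoid P450s, limma called 0, and 2 had an unadjusted p under 0.05, 1 in each direction. Cyp4a12b, a fatty acid hydroxylase, read 6.67, 6.36, 6.82, 6.70 and 6.78 in controls and 6.83, 6.92, 6.81, 6.80 and 7.16 in knockouts, a change of 0.24 ± 0.09 (SE, adjusted p = 0.26). Control 3 and the lower knockouts were level. Cyp2j6, which can make epoxides of arachidonic acid, changed by -0.23 ± 0.08 (SE, adjusted p = 0.167), with 5 of 5 pairs lower. Cyp4b1, a P450 long known from lung for activating furan toxins, had means of 9.71 ± 0.15 and 9.61 ± 0.28 (SD, n = 5 each), and knockout 5 was its lowest lung at 9.17. Cyp4v3 had means of 8.78 ± 0.12 and 8.77 ± 0.29, and knockout 5 was again lowest, at 8.34. Of 17 eicosanoid enzymes outside the 4 families, limma called 0 (2 at an unadjusted p under 0.05).

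Of 20 P450s of families 2 and 3 and other P450s, which mainly handle foreign compounds, limma called 0, and 1 had an unadjusted p under 0.05, Cyp2c39, whose means of 5.32 and 5.15 lay under 6.3. Cyp20a1, an orphan P450, had means of 10.16 and 10.16, with an interval from -0.17 to 0.16. Cyp2s1, an epithelial P450, had means of 9.23 and 9.33, with an interval from -0.06 to 0.25. Cyp2f2, the club cell P450 left out of the 87, had means of 11.68 and 11.74 (adjusted p = 0.717).

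Cyp2b10, the classic target of the xenobiotic receptor CAR, had a mean of 6.17 over all lungs, under 6.3. It had the widest spread of the 87 and lay at the 99.9th percentile of all genes in within-group SD. Controls read 6.06, 5.08, 5.93, 6.40 and 5.72, and knockouts 5.98, 6.24, 5.85, 7.71 and 6.78. Knockouts 4 and 5 stood above all controls, and knockouts 1 to 3 lay among them. The change of 0.67 ± 0.33 (SE) was not called (adjusted p = 0.417), and its interval ran from -0.05 to 1.40. Cyp2e1, which oxidises ethanol and small solvents, also varied within groups, from 8.05 to 9.08 in controls and from 8.23 to 9.05 in knockouts. Its change was 0.17 ± 0.19 (SE, adjusted p = 0.8).

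**Figure D3:**
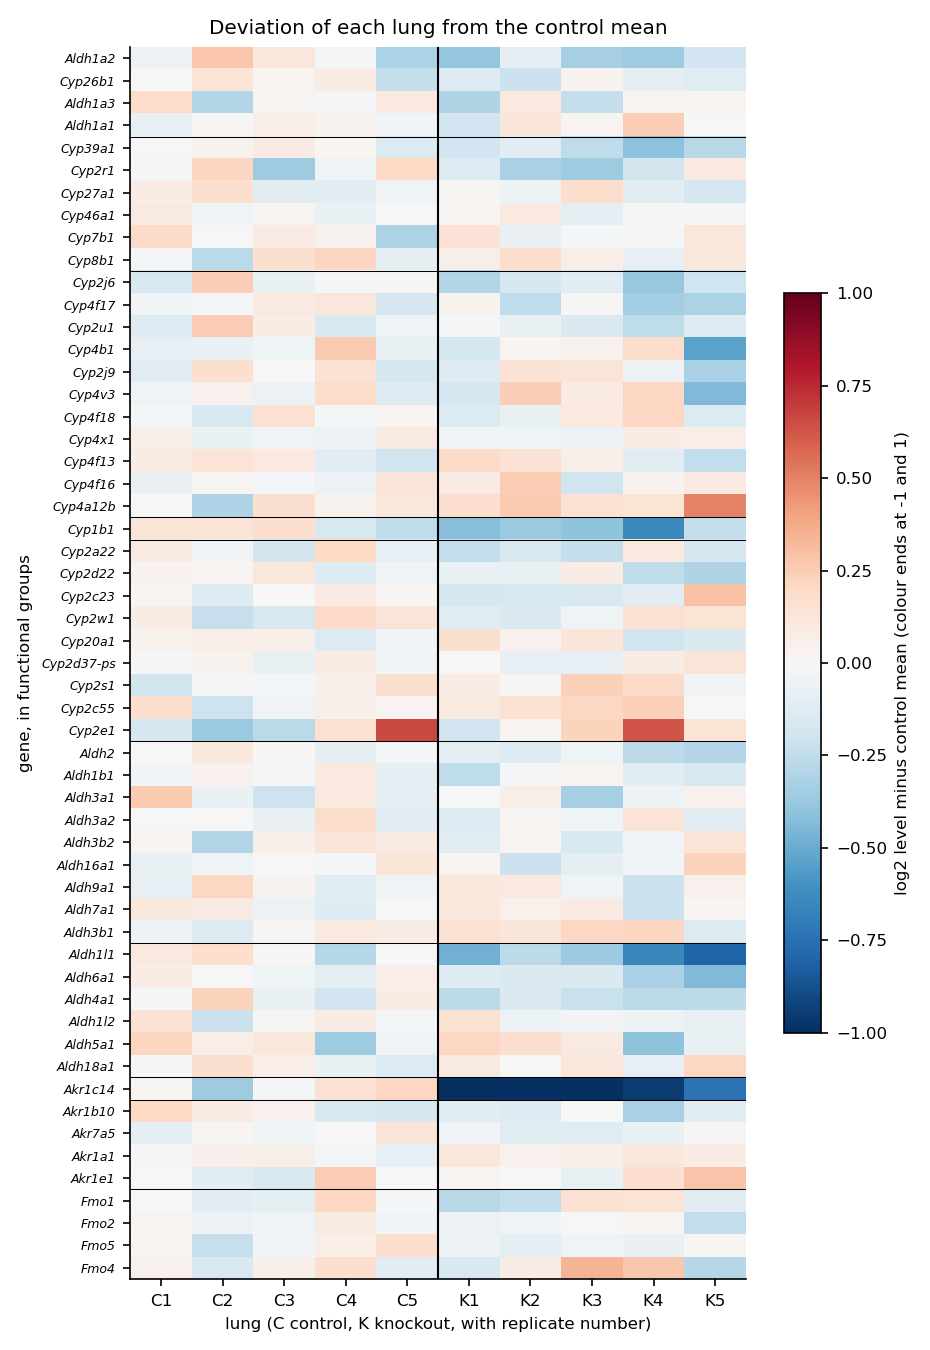
Deviation of each lung from the control mean (log2) for the 55 enzymes with a mean of at least 6.3, in functional groups, with controls 1 to 5 on the left and knockouts 1 to 5 on the right. Akr1c14 is low in all 5 knockouts, Aldh1l1 is lowest in knockouts 4 and 5 (7.97 and 7.81), and most other rows show no block of 1 colour.

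Of 6 flavin-containing monooxygenases, limma called 0, also at an unadjusted p under 0.05. Fmo2, the form known as the main one of the lung in many mammals, read 12.33, 12.24, 12.26, 12.39 and 12.27 in controls and 12.24, 12.26, 12.30, 12.32 and 12.05 in knockouts. Knockouts 1 and 5 lay below all controls, knockout 1 only just, and the other lungs overlapped. The change was -0.07 (adjusted p = 0.714), and the interval of the change ran from -0.19 to 0.06. Fmo1 had means of 10.58 ± 0.12 and 10.51 ± 0.20 (SD, n = 5 each), with an interval from -0.27 to 0.14. Of 5 aldo-keto reductases outside the 1C group, 0 were called, also at an unadjusted p under 0.05. Akr1a1, the aldehyde reductase that mice use in vitamin C synthesis, had means of 11.80 and 11.88 and an interval from -0.02 to 0.17. Akr1e1, which reduces anhydrofructose, had means of 7.70 and 7.78.

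Many of these genes lie in clusters of relatives, and 10 neighbourhoods held at least 3 measured genes. In the Akr1c neighbourhood 1 gene was called, and in the other 9 limma called 0. Of all genes 3.12% were called, so 0 called among so few genes says little about a cluster. The Cyp2d cluster ran from -0.12 for Cyp2d22 to 0.04 for Cyp2d13, and the Fmo cluster from -0.07 for Fmo1 to 0.05 for Fmo4. The Cyp2j cluster ran from -0.23 for Cyp2j6 to 0.18 for Cyp2j13. Most Cyp2d and most Cyp2j genes of these clusters, Cyp2d13 and Cyp2j13 among them, had means under 6.3. Probe sets of close relatives such as the Cyp2d, Cyp2j and Cyp4a genes can read more than 1 of them, which was not tested.

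**Figure D4:**
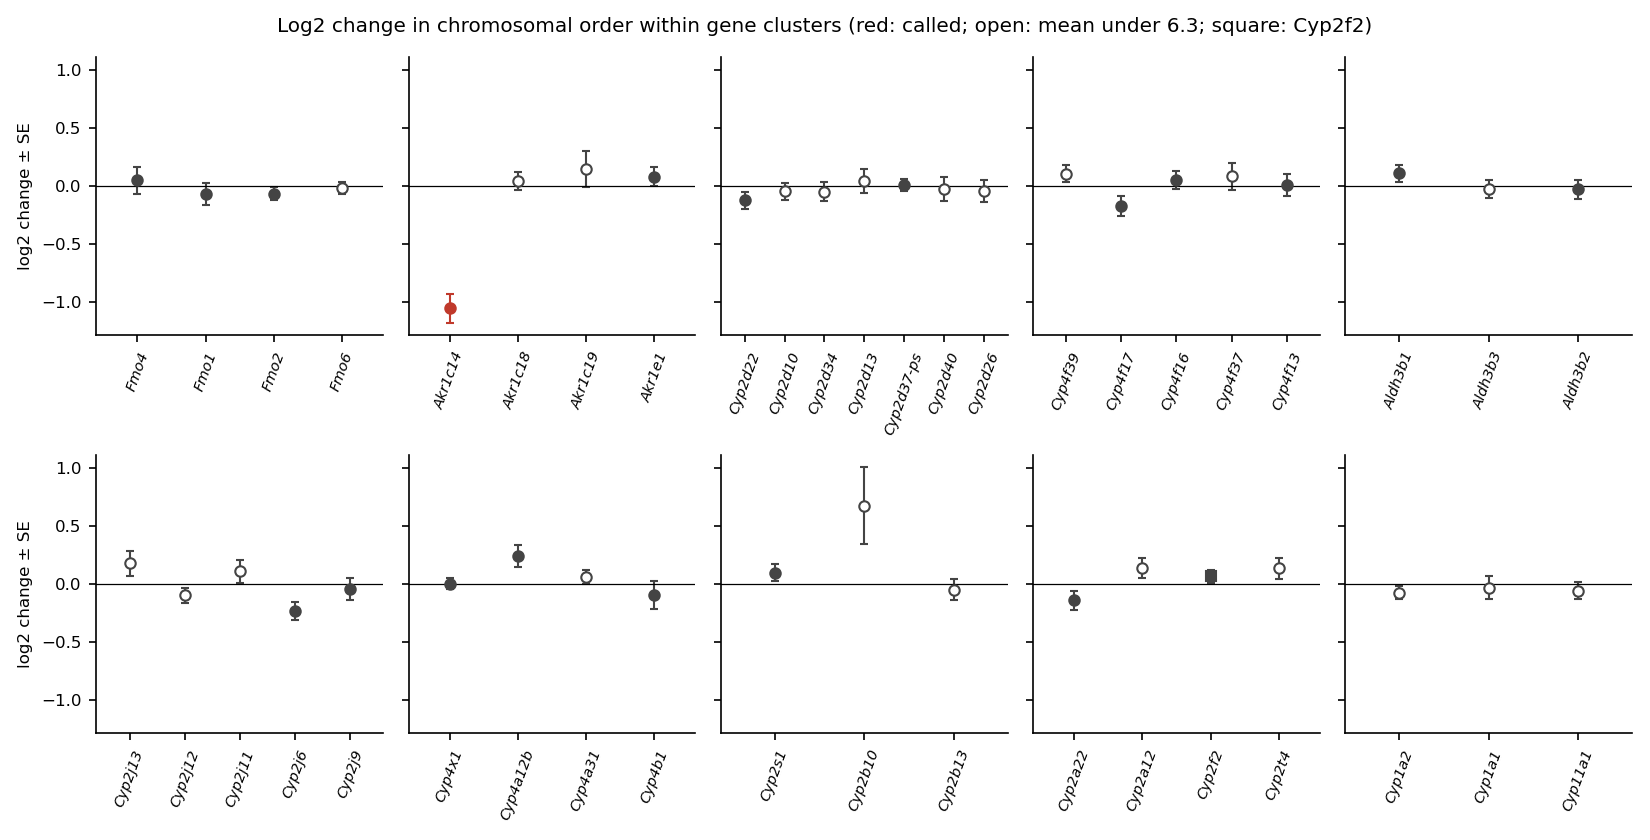
Log2 change ± SE of neighbouring genes in 10 clusters, in chromosomal order, with open symbols for means under 6.3 and a square for Cyp2f2. Akr1c14 (-1.05) is the only red, called gene, beside Akr1c18 at 0.04 and Akr1c19 at 0.15.

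Of 142 measured genes of 6 companion lists, which hold partners of these enzymes, 8 were called (5.63%, beside 3.12% of all genes), with a median change of 0.02. With the replicate block 10 were called (7.04%, beside 4.72%). The lists were chosen with earlier results of these data known. Their shares therefore cannot show that partners changed more often than other genes. Of 17 measured genes of P450 electron supply and haem handling, limma called 0. An unadjusted p under 0.05 was found for 4 of them, beside 13.5% of all genes. Alas1, which starts haem synthesis, read 9.92, 9.86, 9.90, 9.95 and 10.02 in controls and 10.18, 10.19, 10.16, 10.37 and 10.01 in knockouts, a change of 0.25 ± 0.06 (SE, adjusted p = 0.0562). Only knockout 5 lay among its controls. Alas1 and other uncalled partners were named after their values were seen.

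Of 28 measured sensors and regulators, 1 rose and 1 fell (7.14%, with a median change of 0.07 over the list). With the replicate block 2 rose, since Tiparp, a target of the aryl hydrocarbon receptor, was then called (change 0.28, adjusted p = 0.424 without and 0.0392 with the block, higher in 5 of 5 pairs). Nfe2l2, which encodes the transcription factor NRF2, read 11.24, 11.27, 11.07, 11.26 and 11.28 in controls and 11.59, 11.74, 11.55, 11.66 and 11.60 in knockouts. The groups did not overlap, and it rose by 0.41 ± 0.06 (SE, adjusted p = 0.00139). Vdr, the vitamin D receptor, had means of 7.88 ± 0.10 and 7.61 ± 0.07 (SD, n = 5 each) and fell by 0.27 (adjusted p = 0.0232), a call lost without control 4 (0.0582), knockout 1 (0.0617) or knockout 4 (0.0578). Ahr, the receptor behind family 1 induction, had a difference of 0.09 (adjusted p = 0.525). The drug receptors Nr1i2 and Nr1i3 were under 6.3, with means from 5.75 to 5.81.

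Of 34 measured genes of conjugation and hydrolysis, 2 rose and 2 fell (11.8%, beside 3.12% of all genes, with a median change of 0.01 over the list). The glutathione transferases Gsta3 and Gsto1 rose by 0.67 ± 0.10 and 0.62 ± 0.11 (SE, adjusted p = 0.0027 and 0.0093), and Gstt3 fell by 0.45 ± 0.07 (adjusted p = 0.00409). Ces1d, a carboxylesterase, fell by 0.31 ± 0.05 (adjusted p = 0.00867). Of 22 other carbonyl and quinone reductases and steroid dehydrogenases, 2 were called (9.09%). Nqo1, a quinone reductase, rose by 1.04 ± 0.12 (adjusted p = 0.000439). Cbr2, a carbonyl reductase known from lung mitochondria, fell by 0.30 ± 0.05 (adjusted p = 0.00292), from 12.86 ± 0.04 to 12.56 ± 0.06 (SD, n = 5 each).

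Nqo1 and several glutathione transferases are known NRF2 targets, as are some of the 87. Akr1b8 read 6.10, 5.96, 6.15, 5.78 and 5.84 in controls and 6.21, 6.25, 6.06, 5.87 and 5.98 in knockouts, a change of 0.11 with an interval from -0.09 to 0.30. Its mean of 6.02 lay under 6.3, where changes can be understated. Aldh3a1 changed by -0.06, with an interval from -0.26 to 0.15, and Aldh1a1 by 0.04. For these 3 the groups overlapped, and the difference of their changes from that of Nqo1 was not tested. The 3 are examples, and Akr1b8 and Aldh3a1 were named after their values were seen.

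**Figure D5:**
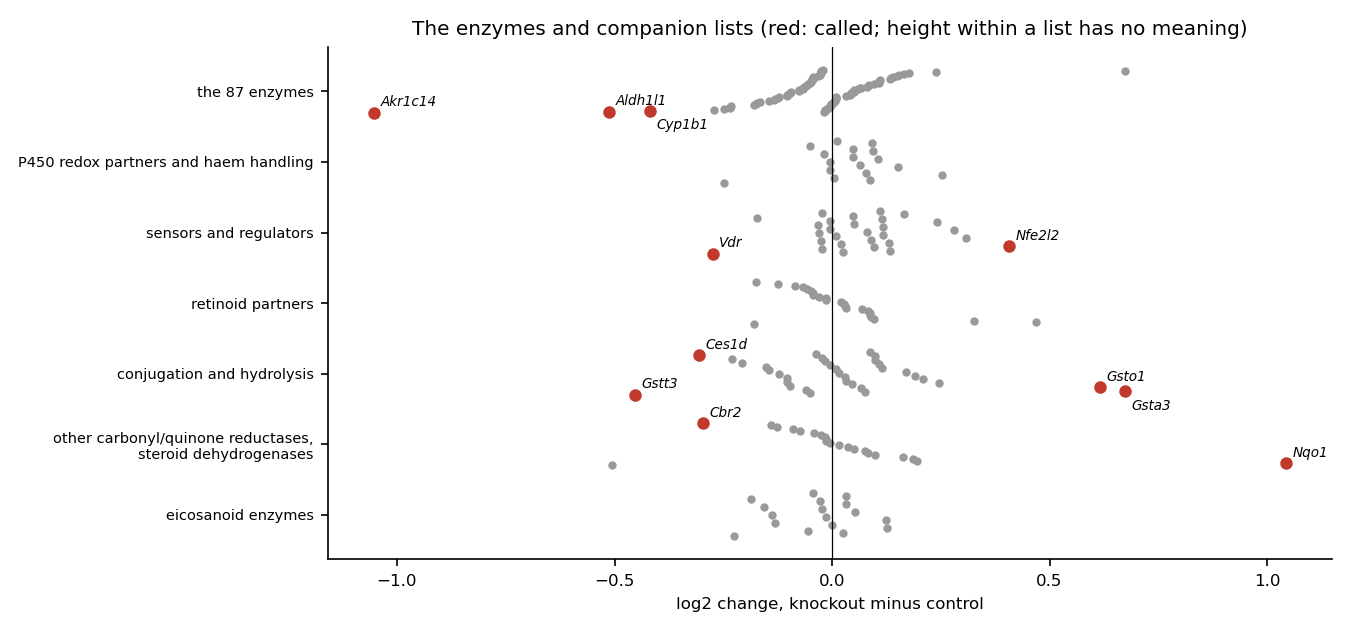
Log2 change of each of the 87 enzymes and of each measured gene of 6 companion lists, with called genes in red and named. The 3 called enzymes lie at -1.05, -0.51 and -0.42, and the companion genes called lie from -0.45 (Gstt3) to 1.04 (Nqo1).

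Markers of several epithelial cell types also differed between the groups. For comparison, 3.12% of all genes were called, 1.58% lower and 1.54% higher, and 4.72% with the replicate block. An unadjusted p under 0.05 was found for 13.5% of all genes. Of 7 club and secretory markers, Scgb3a2, Chad and Gabrp fell, by 1.06, 1.26 and 1.13 (limma adjusted p = 0.00248, 0.000446 and 0.000779), and 0 rose. At an unadjusted p under 0.05 these 3 were lower and Bpifa1 was higher, and Bpifa1 was called with the replicate block (change 0.57, adjusted p = 0.0479). The mean level of the list was 9.31 to 9.75 in controls and 8.72 to 9.18 in knockouts. Scgb1a1, the defining club cell gene, had means of 12.42 and 12.28 (adjusted p = 0.469), and Bpifa1 (means of 4.57 and 5.14) was the 1 marker under 6.3. Of 5 ciliated cell markers, Dnah9 and Dnah11 fell, by 0.27 and 0.36 (adjusted p = 0.00663 and 0.000349). Tubb4b, with means of 6.02 and 6.17, was higher at an unadjusted p under 0.05 (change 0.16, adjusted p = 0.11). Foxj1 changed by 0.12 (adjusted p = 0.371) and Rsph1 by -0.09 (0.72). The mean level of the ciliated list was 7.53 to 7.62 in controls and 7.44 to 7.55 in knockouts. Of 6 markers of flat alveolar (AT1) cells, Pdpn fell by 0.52 (adjusted p = 0.00974), and Rtkn2 was called higher with the replicate block (change 0.40, adjusted p = 0.00862). Without the block, Aqp5 and Rtkn2 were higher at an unadjusted p under 0.05 (changes 0.47 and 0.40, limma adjusted p = 0.115 and 0.327). The AT1 list had mean levels of 10.61 to 10.81 in controls and 10.68 to 11.03 in knockouts. Of 8 stomach and gut markers, Cblif fell by 1.76 (adjusted p = 5.05e-05), and the other 7 were under 6.3. The mean level of 6 mesenchymal markers was 9.79 to 9.98 in controls and 9.72 to 10.01 in knockouts, with 0 called by limma, also at an unadjusted p under 0.05. The same held for 5 endothelial markers. Of 5 leukocyte markers limma called 0, at mean levels of 8.64 to 8.85 in controls and 8.39 to 8.67 in knockouts. With the replicate block Laptm5, a leukocyte marker, was called lower (change -0.27, adjusted p = 0.0227). Slc4a1, the 1 erythroid marker measured, was then called higher (change 0.22, adjusted p = 0.0461). The part of cell make-up in the falls of Akr1c14, Aldh1l1 and Cyp1b1 was not tested.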

How the data were processed

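The authors deposited log2 probe set values. The tools named are oligo, RMA and limma, per the submitters' processing notes, which give no roles or versions. Neither a genome build nor a row filter is stated in the labels, and scanner files were not used. If the values are RMA's, differences at low signal are compressed, so changes of genes near or under 6.3 can be understated. The table held 24888 probe sets, of which the platform's annotation gave 1 symbol to 18922, several to 1343 and none to 4623. Of the genes, 17790 matched the GRCm38.p6 RefSeq table by gene ID, as did all 87 enzymes. The row of highest mean over 10 lungs stood for each gene. Sample medians ran from 7.43 to 7.46, and correlations between lungs from 0.984 to 0.995. The labels call the lungs biological replicates, and their number limits the precision.

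Groups were compared with limma 3.58.1 in R 4.3.3 (lmFit, eBayes, no covariate), tested on simulated data. Both groups carry numbers 1 to 5. Deviations of same-numbered lungs from their group means correlated at 0.154 to 0.485. Those of different-numbered lungs had a median correlation of -0.08 but reached 0.33, within that range. For the block and the pair counts the numbers were taken to pair the lungs, from the data and not the labels. Whether they are true pairs is not known. Named were all enzymes called with or without the block, the 2 of highest mean in each functional group where that mean was at least 6.3, and called genes of the companion lists. Others were named after their values were seen. The members and lists were chosen with earlier results of these data known.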

Additional observations from a re-analysis of the deposited data

Results flagged for a closer look

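In 190 groups of 5 lungs (the 87 enzymes and 8 called companion genes), 13 held 1 lung that stood far from the other 4, by Dixon's criterion of 0.71. Chance alone gives about 1 in 20 groups, or 9.5.

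Knockout 5 stood apart for Cyp2c23 (6.63, others 6.16 to 6.23), Aldh3b1 (8.76, others 9.02 to 9.11) and Gsta3 (7.43, others 7.87 to 7.93). Knockout 4 was low for Aldh7a1 (10.15, others 10.39 to 10.48) and high for Cyp2a22 (7.12, others 6.77 to 6.86). Knockout 3 was low for Aldh3a1 (6.28, others 6.56 to 6.67). Knockout 1 was high for Aldh1l2 (6.53, others 6.29 to 6.35) and low for Cyp26c1 (5.44, others 5.58 to 5.64).

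Among controls, control 4 was high for Cyp4b1 (9.97, others 9.63 to 9.66). Control 2 was low for Aldh3b2 (7.54, others 7.86 to 7.96) and Cyp2b13 (5.30, others 5.55 to 5.59). Control 1 was high for Gstt3 (7.77, others 7.67 to 7.69), and control 3 was low for Nfe2l2 (11.07, others 11.24 to 11.28). No lung of the called enzymes Akr1c14, Aldh1l1 and Cyp1b1 was among these.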

How the results depend on the processing

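Across 21 other fits, Akr1c14 was called in 20, Aldh1l1 in 14, Cyp1b1 in 12 and Cyp39a1 in 8, all with falls, and no enzyme was called higher. The count of enzymes called was 3 by limma. It was 4 with the replicate block, and 5, all lower, with numbers 1 to 3 against 4 and 5 as a block. It was 0 with numbers 4 and 5 alone, where 2 genes in all were called, and 1 (lower) with values raised to 6.3. At a threshold of 0.01 it was 1. Leaving out 1 lung at a time gave 1 to 4 enzymes called, all lower (higher: 0 to 0), 393 to 699 genes in all and 7 to 12 companion genes. The enzyme count was 1 without control 1, control 2, control 3 or knockout 4. In all, 559 genes were called, 846 with the replicate block and 910 with the 2 sets of numbers as a block. The companion count was 8, and 14 with those sets as a block and 0 with numbers 4 and 5 alone. Quantile normalising again or centring each array on its median gave 4 enzymes called. No called gene changed sign, and named genes that were called in neither fit changed sign in 24 comparisons. With 5 lungs per group, the median SE of a change was 0.08 over the 87.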

Other observations

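The enzymes varied somewhat more within groups than genes in general, with a median within-group SD of 0.13 beside 0.11 over all genes. After Cyp2b10 (0.64), the widest were Cyp2e1 (0.36), Cyp3a13 (0.32) and Akr1c19 (0.29), and the means of Cyp2b10, Cyp3a13 and Akr1c19 lay under 6.3. Of the 87, 4 had a second probe set. For Aldh2, Aldh3a2 and Cyp11a1 neither probe set was called, and the changes were -0.17 and -0.05, -0.03 and 0.04, and -0.06 and -0.08. For Aldh6a1 they had opposite signs, at -0.24 and 0.26.

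Among genes within 5 places of Cyp39a1, Pla2g7, a lipoprotein-associated phospholipase, was called higher, by 0.58 (limma adjusted p = 0.0159). Clic5, a chloride channel protein, was not called (0.06, adjusted p = 0.879). Within 5 places of Aldh1l1, the transcription factor gene Klf15 had a change of -0.36 (adjusted p = 0.298) and Hdac11, another histone deacetylase, of -0.21 (0.0718). These neighbours were named after their values were seen.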
